A study of Mus musculus with 132 samples.

Results

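Polycomb complexes are built from small gene families, and the 33 genes that encode their subunits were followed here through blood formation from mouse embryonic stem cells (mESCs). The 33 genes were chosen by name as subunits of Polycomb repressive complexes 1 and 2 (PRC1 and PRC2) and are 33 of 25146 genes in the count table, 11 of PRC2 and 22 of PRC1. Transcripts were measured by poly(A)-minus RNA-seq, which enriches nascent RNA, in 23 libraries of 7 groups of the male mESC line E14-TG2a (strain 129/Ola). Differentiation was in serum-free medium with BMP4, Activin-A, bFGF, SCF and VEGF, and the deletions were made by CRISPR-Cas9. Wild-type cells were undifferentiated on day 0 (n = 2 technical replicates of 1 culture), Flk1+ mesoderm on day 4 (n = 3, 1 library each of clone B9.3, clone C6.1 and clone C8.1) or CD41+ hematopoietic progenitor cells (HPCs) on day 7 (n = 4, the same clones with 2 libraries of B9.3). P1-CTCF-KO cells, which lack the CTCF site next to the P1 promoter of Runx1, were mesoderm and HPCs of clones E7.1, E7.2 and E9.1 (n = 3 and 3). P2-CTCF-KO cells, which lack the site next to the P2 promoter, were mesoderm of clones D10.1, D2.1 and E9.1 (n = 3) and HPCs of the same clones with 2 libraries each of D10.1 and D2.1 (n = 5). A clone is a line grown from a single cell, so clones may differ in more than the deletion, and counts over genes cannot check a deleted CTCF site. The paper describes more sub-clones of each deletion than targeting events, so clones of a deletion may share an event.

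PRC2 methylates histone H3 at lysine residues of silent developmental genes: Ezh1 or Ezh2 is the enzyme, Eed and Suz12 hold it in its active form, and accessory subunits bring it to CpG islands. PRC1 ubiquitinates histone H2A through Ring1 or Rnf2, and the PCGF subunit bound to that enzyme sets the kind of complex. Canonical PRC1 (Pcgf2 or Bmi1) carries a CBX protein that reads the PRC2 mark and a PHC protein that polymerises, whereas variant PRC1 carries Rybp or Yaf2 in their place. Exchange of such paralogs is known between stem cells and blood progenitors, in which Polycomb holds lineage genes silent.

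The results below turn most on Cbx2, Phc1, Phc3 and Jarid2, and the 250 bases before the annotated start of each are shown from the mm9 assembly, 5′ to 3′ on the gene's strand. Capitals mark the bases under an ATAC-seq peak (open chromatin) of wild-type mesoderm, so that the open part of each promoter can be seen. The windows are chr11:118884084-118884333 (+ strand) for Cbx2, chr6:122290246-122290495 (- strand) for Phc1, chr3:30868338-30868587 (- strand) for Phc3 and chr13:44825892-44826141 (+ strand) for Jarid2.
Cbx2: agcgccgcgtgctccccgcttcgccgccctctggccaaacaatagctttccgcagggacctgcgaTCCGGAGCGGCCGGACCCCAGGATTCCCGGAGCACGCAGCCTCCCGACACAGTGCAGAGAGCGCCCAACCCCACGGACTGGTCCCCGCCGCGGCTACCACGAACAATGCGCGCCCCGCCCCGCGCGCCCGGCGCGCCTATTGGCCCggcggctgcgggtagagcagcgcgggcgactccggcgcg
Phc1: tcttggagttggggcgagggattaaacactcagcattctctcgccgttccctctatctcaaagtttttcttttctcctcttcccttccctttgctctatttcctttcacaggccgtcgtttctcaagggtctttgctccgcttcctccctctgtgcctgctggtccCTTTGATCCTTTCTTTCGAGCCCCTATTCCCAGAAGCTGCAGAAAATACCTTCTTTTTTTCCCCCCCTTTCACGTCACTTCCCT
Phc3: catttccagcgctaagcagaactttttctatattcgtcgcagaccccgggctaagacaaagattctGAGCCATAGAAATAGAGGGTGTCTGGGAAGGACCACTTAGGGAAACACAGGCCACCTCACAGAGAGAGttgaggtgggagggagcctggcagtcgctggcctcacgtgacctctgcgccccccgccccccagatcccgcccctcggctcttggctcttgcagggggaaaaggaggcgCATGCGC
Jarid2: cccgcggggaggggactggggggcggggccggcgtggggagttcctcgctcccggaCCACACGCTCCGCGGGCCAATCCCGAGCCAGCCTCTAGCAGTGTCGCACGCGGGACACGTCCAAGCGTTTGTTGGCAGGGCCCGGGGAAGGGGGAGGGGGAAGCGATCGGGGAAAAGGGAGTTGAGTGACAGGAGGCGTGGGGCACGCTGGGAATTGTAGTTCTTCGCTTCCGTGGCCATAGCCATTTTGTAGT
The capitals cover 146, 84, 75 and 194 bases. Over the 33 genes the same window had a median GC content of 67.2% and a median of 23 CG pairs, against 54.4% and 8 over 24961 genes with a single annotated position. The motif GGGCGG, read on either strand, was present in 24 of the 33 windows and in 40.3% of all genes' windows. TGTGGT, of the kind Runx1 binds, was present in 6 (12.6% of all genes), CACGTG in 8 (6.51%), TTTCCCGC in 2, Suz12 and Phf19 (1.11%), and TTTGGCGC and AGATAA in 0 (0.525% and 9.19%).

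The libraries held 7805102 to 24406998 counts, of which ribosomal RNA and entries spread over several loci took 68.1% to 91%. In mesoderm and HPC libraries 878966 to 2288976 counts remained, 1015 to 3388 of them in the 33 genes, and 1 count was worth 0.0412 to 0.203 CPM (the count scaled to library size after TMM normalization). The undifferentiated libraries held 20239 and 35679 counts in the 33 genes, but the study's methods describe ribosomal RNA depletion for undifferentiated mESCs and not for the later stages, so stage and library preparation cannot be told apart in comparisons with them. TMM factors of the undifferentiated libraries were 4.97 and 7.56, against 0.381 to 1.19 in all others, and 1 count was worth 0.00981 and 0.00546 CPM. Fold changes against undifferentiated cells rest on this scaling. The summed level of 7 pluripotency markers was 46.7 to 50.6 CPM in undifferentiated cells and 0.812 to 1.21 in wild-type mesoderm. That of 5 mesoderm markers was 24.7 to 44.4 CPM in wild-type mesoderm, and that of 7 blood markers 113 to 194 in wild-type HPCs, as labelled. The P2-CTCF-KO HPC library D2.1 stood apart: its 4 endothelial markers summed to 46.4 CPM against 6.65 to 18 in the other 4, its mesoderm markers to 19.5 against 4.01 to 10.4, while its blood markers (80.4 CPM) lay within the range of the other 4 (72.7 to 254). In bulk RNA, fewer cells of a type and less RNA per cell cannot be told apart.

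Across the stages, Eed, Mtf2, Phc1 and Cbx7 fell on leaving the undifferentiated state, Phc2, Yaf2, Bcor and Bcorl1 rose, and Pcgf2 and Cbx2 fell and Jarid2 rose between mesoderm and HPCs in each genotype. Such calls needed an adjusted p under 0.05 (edgeR quasi-likelihood test, adjusted over 12543 tested genes) and a log2 fold change beyond 1 in either direction. 30 of the 33 genes were tested. Phf1, Ring1 and Cbx8, with 116, 103 and 16 counts in all 23 libraries, had too few counts for the test. From undifferentiated cells to wild-type mesoderm 11 of 30 genes changed (36.7%), 6 higher and 5 lower, where 22.8% of all tested genes did (10.4% higher, 12.4% lower). From wild-type mesoderm to HPCs 6 changed (20%), 1 higher and 5 lower, against 23.1% of all genes (10.7% higher, 12.4% lower). That count was 9 (1 higher, 8 lower) by DESeq2, with RLE size factors or without ribosomal and multi-locus entries, each of which added Rbbp7, Cbx6 and Cbx7, and 3 without mesoderm library C8.1. Between undifferentiated cells and HPCs 16 changed (53.3%), 6 higher and 10 lower, against 41.3% (17% higher, 24.2% lower). From mesoderm to HPCs 9 changed in P1-CTCF-KO (30%), 3 higher and 6 lower, against 26.8% (13% and 13.8%), and 7 in P2-CTCF-KO (23.3%), 2 higher and 5 lower, against 25% (13.2% and 11.8%). The shares of the 30 tested genes were thus near those of all genes from mesoderm to HPCs in every genotype. Their median log2 fold change was -0.37, -0.35 and -0.15 there in wild-type cells and then in the P1- and P2-CTCF-KO, against -0.02, -0.16 and 0 over all genes.

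**Figure D1:**
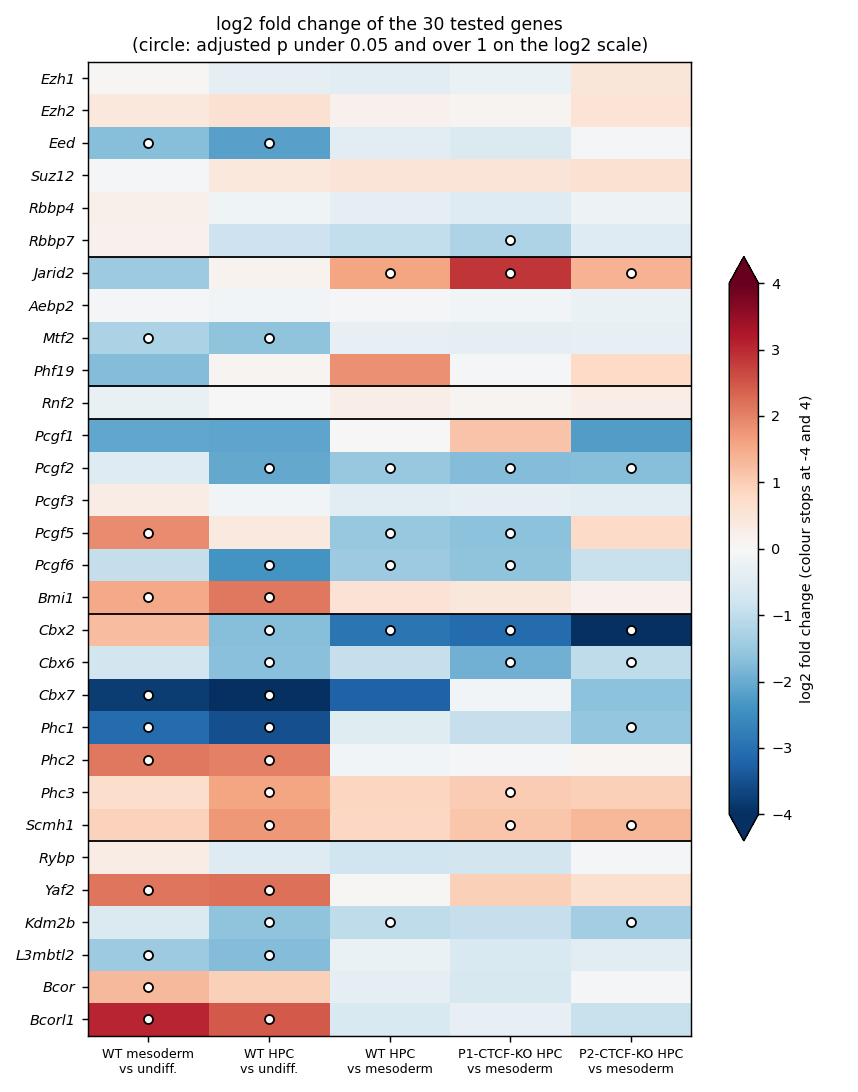
Log2 fold change of the 30 tested genes (rows, in blocks of PRC2 core, PRC2 accessory, RING, PCGF, canonical PRC1 and variant PRC1) in 5 stage comparisons (columns); red is higher and blue lower at the later stage, and circles mark called genes. The 3 columns for mesoderm to HPCs share circles for Jarid2, Pcgf2 and Cbx2, while Eed, Mtf2, Cbx7, Phc1, Phc2, Yaf2 and Bcorl1 have circles, like Bmi1 and L3mbtl2, in both comparisons of wild-type cells with undifferentiated cells; the values of Cbx7 in wild-type HPCs rest on 2 counts.

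Of 10 tested PRC2 genes, 2 fell from undifferentiated cells to mesoderm and none rose, with a median log2 fold change of -0.08, while of 20 tested PRC1 genes 6 rose and 3 fell, with a median of 0.31. From wild-type mesoderm to HPCs 1 PRC2 gene rose and none fell (median -0.19), and 5 PRC1 genes fell and none rose (median -0.45). In P1-CTCF-KO the PRC2 genes had 1 call in each direction (median -0.18) and the PRC1 genes 2 higher and 5 lower (median -0.50), and in P2-CTCF-KO 1 PRC2 gene rose (median 0.21) and 1 PRC1 gene rose while 5 fell (median -0.41). The difference between both complexes was not tested.

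Among the PRC2 core genes, Eed, the subunit that binds the mark PRC2 makes, was higher in undifferentiated cells than later. Eed had 8.11 and 8.47 CPM in undifferentiated cells and 2.78, 2.06 and 2.70 in wild-type mesoderm (clone order B9.3, C6.1, C8.1). No mesoderm library reached the undifferentiated level, and Eed fell by 1.70 on the log2 scale (SE 0.31, adjusted p = 5.2e-04). Wild-type HPCs had 1.29, 0.896, 2.37 and 2.75 CPM (B9.3, B9.3-2, C6.1, C8.1). Eed in P1-CTCF-KO had 2.58, 2.63 and 2.75 CPM in mesoderm and 1.62, 2.35 and 1.27 in HPCs, and in P2-CTCF-KO 2.96, 3.38 and 2.52 in mesoderm and 2.23, 3.56, 2.72, 2.32 and 3.26 in HPCs. Between mesoderm and HPCs the libraries overlapped, from 2.06 to 3.38 CPM in 9 mesoderm libraries and from 0.896 to 3.56 in 12 HPC libraries. The enzyme Ezh2 had a median of 6.61 CPM in mesoderm (4.59 to 8.62) and 8.03 in HPCs, its paralog Ezh1 medians of 1.92 (0.469 to 2.62) and 1.5 (1.02 to 2.43), and neither was called in any comparison. Suz12, the scaffold of the complex, had 5.99 to 9.92 CPM in mesoderm and 8.93 to 15.4 in HPCs, also without a call. The histone chaperones Rbbp4 and Rbbp7 belong to other chromatin complexes as well. Rbbp7 had 6.64 and 6.07 CPM in undifferentiated cells, 6.9, 6.92 and 7.8 in wild-type mesoderm and 4.55, 3.46, 3.85 and 2.58 in wild-type HPCs. Rbbp7 in P1-CTCF-KO had 7.34, 8.15 and 6.36 CPM in mesoderm and 2.64, 3.47 and 3.17 in HPCs, and in P2-CTCF-KO 6.75, 6.28 and 7.92 in mesoderm and 3.39, 5.87, 4.68, 5.7 and 4.56 in HPCs. Its 9 mesoderm libraries (6.28 to 8.15 CPM) lay above its 12 HPC libraries (2.58 to 5.87), without overlap. It fell by 1.22 in P1-CTCF-KO (SE 0.23, adjusted p = 4.5e-04), and its log2 fold change was -1 in wild-type cells (adjusted p = 0.0011) and -0.53 in P2-CTCF-KO (adjusted p = 0.041), neither beyond the fold limit. The wild-type value lay at that limit: it was called by DESeq2, with RLE size factors, without the filter on low counts, without ribosomal and multi-locus entries, with the libraries of a clone summed, in a fit of the compared groups alone, with the replicate block and without HPC B9.3 or C6.1 or mesoderm B9.3 or C6.1. Rbbp4 had 9.08 and 8.49 CPM in undifferentiated cells, 10.6, 10.7 and 9.24 in wild-type mesoderm and 6.7, 6.79, 11.2 and 6.25 in wild-type HPCs. Rbbp4 in P1-CTCF-KO had 9.8, 9.18 and 9.77 CPM in mesoderm and 8.11, 6.38 and 5.58 in HPCs, and in P2-CTCF-KO 10.5, 9.1 and 9.62 in mesoderm and 6.01, 9.04, 7.75, 9.82 and 9.45 in HPCs. It was not called in any comparison. Rbbp4 and Rbbp7 each overlap a gene on the opposite strand (Sync and Txlng), and the strand setting of the counting is not stated.

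Of the accessory PRC2 genes, Jarid2, which recruits PRC2 and binds nucleosomes modified by PRC1, varied most in level among HPC libraries, from 22.8 to 190 CPM. It had 52.3 and 53.7 CPM in undifferentiated cells, above every wild-type mesoderm library. Jarid2 was not called lower in wild-type mesoderm in the main fit. It was called there without the filter on low counts, with the libraries of a clone summed and in a fit of the compared groups alone. In mesoderm it had 17.3, 22.8 and 18.1 CPM in wild-type clones, 16.0, 16.6 and 15.5 in P1-CTCF-KO clones (E7.1, E7.2, E9.1) and 23.1, 19.8 and 15.8 in P2-CTCF-KO clones (D10.1, D2.1, E9.1). In HPCs it had 64.3, 31.2, 46.8 and 91.2 CPM in wild-type libraries (B9.3, B9.3-2, C6.1, C8.1), 190, 62.8 and 99.1 in P1-CTCF-KO libraries and 118, 59.2, 26.9, 22.8 and 29.5 in P2-CTCF-KO libraries (D10.1, D10.1-2, D2.1, D2.1-2, E9.1). All wild-type and P1-CTCF-KO HPC libraries lay above the mesoderm libraries of their genotype, whereas in P2-CTCF-KO the lowest HPC library, D2.1-2, lay just under the highest mesoderm library, D10.1. Jarid2 rose by 1.59 in wild-type cells (SE 0.48, adjusted p = 0.017), by 2.87 in P1-CTCF-KO (SE 0.52, adjusted p = 3.3e-04) and by 1.39 in P2-CTCF-KO (SE 0.46, adjusted p = 0.025). The wild-type call was lost without HPC library C8.1 or mesoderm library B9.3 or C8.1 (log2 1.29, 1.52 and 1.54, adjusted p 0.062, 0.058 and 0.061), and the P2-CTCF-KO call without HPC library D10.1 (0.82, adjusted p = 0.099), without any 1 of the 3 mesoderm libraries (1.26 to 1.53, adjusted p 0.05 to 0.10), in a fit of the compared groups alone (1.30, adjusted p = 0.10) and with the clone as a replicate block (1.01, adjusted p = 0.065). The libraries of a stage also differed in 12 proliferation markers, which summed to 107 and 88.4 CPM in wild-type HPC libraries B9.3 and C8.1 and to 168 and 187 in B9.3-2 and C6.1, the libraries with less Jarid2. In P2-CTCF-KO HPCs they summed to 72.3, 138, 79.8, 212 and 200 CPM in the order above, lowest in D10.1, which had most Jarid2, and highest in D2.1-2, which had least, whereas D2.1 was low in both. P1-CTCF-KO HPCs had 72.4 to 87.6 CPM of these markers and P1-CTCF-KO mesoderm 108 to 110. Their part in the Jarid2 result was not tested.

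Mtf2, which tethers PRC2 to unmethylated CpG islands, had 17.7 and 16.7 CPM in undifferentiated cells against 7.72, 6.56 and 7.08 in wild-type mesoderm. All later libraries were lower, at 8.28 CPM or less, and Mtf2 fell by 1.27 (SE 0.19, adjusted p = 1.1e-04). Wild-type HPCs had 5.58, 5.76, 6.51 and 4.75 CPM of it. Mtf2 in P1-CTCF-KO had 7.16, 8.28 and 6.56 CPM in mesoderm and 4.26, 5.93 and 6.59 in HPCs, and in P2-CTCF-KO 6.61, 6.94 and 6.96 in mesoderm and 4.85, 6.06, 5.3, 4.96 and 6.08 in HPCs. Its 9 mesoderm libraries lay between 6.56 and 8.28 CPM and its 12 HPC libraries between 4.26 and 6.59, with little overlap. Its paralogs Phf1 and Phf19 had at most 0.543 and 1.02 CPM in any mesoderm or HPC library, and Aebp2, an accessory subunit found together with Jarid2, had 3.94 to 5.60 CPM in mesoderm and 2.96 to 6.00 in HPCs. CPM are not per length, and Phf1 spans 4783 bp against 43547 bp of Mtf2. Per kb of span, Phf1 averaged 0.0304 to 0.0542 CPM in the mesoderm groups, against 0.157 to 0.168 for Mtf2. In the HPC groups Phf1 averaged 0.0482 to 0.0741, against 0.125 to 0.13. Aebp2 and Phf19 were not called, and Phf1 was not tested. Phf1 had 0.218 and 0.137 CPM in undifferentiated cells, 0.174, 0.243 and 0.36 in wild-type mesoderm and 0.258, 0.384, 0.197 and 0.0833 in wild-type HPCs. Phf1 in P1-CTCF-KO had 0.0587, 0.247 and 0.131 CPM in mesoderm and 0.203, 0.448 and 0.127 in HPCs, and in P2-CTCF-KO 0.275, 0.0938 and 0.296 in mesoderm and 0.291, 0.481, 0.14, 0.317 and 0.543 in HPCs. The Phf1 levels overlapped between stages. Phf19 had 0.355 and 0.481 CPM in undifferentiated cells, 0.174, 0.243 and 0 in wild-type mesoderm and 0.429, 1.02, 0.296 and 0.167 in wild-type HPCs. Phf19 in P1-CTCF-KO had 0.117, 0.0823 and 0.262 CPM in mesoderm and 0.203, 0.112 and 0.127 in HPCs, and in P2-CTCF-KO 0.207, 0.0938 and 0.296 in mesoderm and 0.194, 0.0961, 0.279, 0.845 and 0.434 in HPCs. The libraries of both stages overlapped for Phf19 too.

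**Figure D2:**
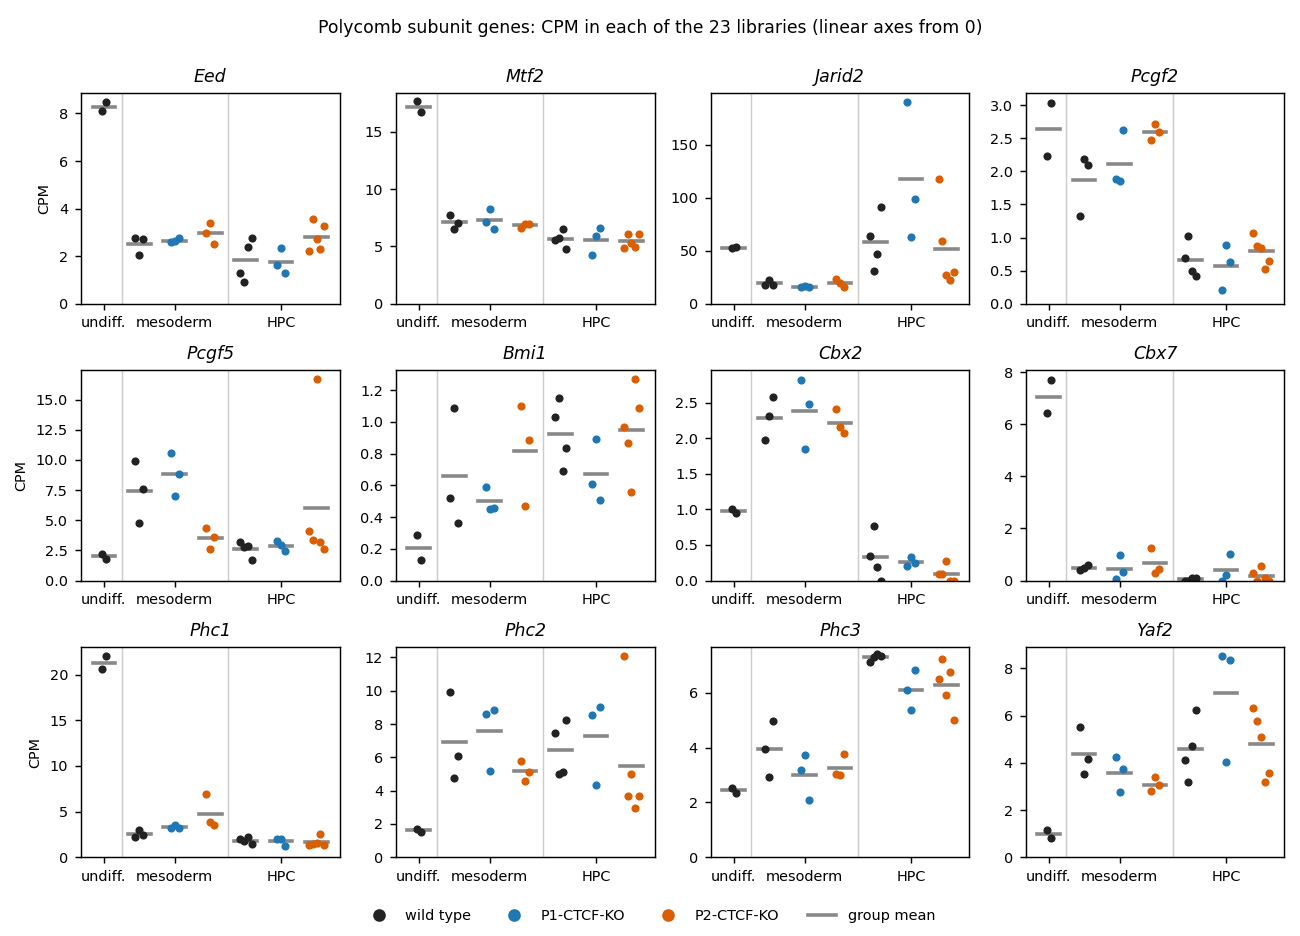
CPM of 12 of the 33 genes in each of the 23 libraries (linear axes from 0), by stage and genotype; points are libraries and bars group means. Eed, Mtf2, Cbx7 and Phc1 were highest in undifferentiated cells, Cbx2 had 1.85 to 2.82 CPM in mesoderm and at most 0.768 in HPCs, and Jarid2 ranged from 22.8 to 190 CPM in HPCs.

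Of the PRC1 enzymes, Rnf2 was not called in any comparison and Ring1 was not tested. Rnf2, the main RING ubiquitin ligase, had 2.16 to 3.63 CPM in mesoderm and 1.62 to 4.59 in HPCs, and its paralog Ring1 had 0.592 CPM or less in every mesoderm and HPC library. Ring1 spans 3890 bp against 31595 bp of Rnf2, and CPM are not per length. Per kb of span, Ring1 averaged 0.0306, 0.0688 and 0.115 CPM in wild-type, P1- and P2-CTCF-KO mesoderm, against 0.101, 0.101 and 0.0944 for Rnf2. In HPCs of these genotypes Ring1 averaged 0.0454, 0.0505 and 0.0435, against 0.121, 0.106 and 0.113. The PCGF subunits decide the kind of PRC1. Pcgf2 (Mel18), of canonical PRC1, had 2.23 and 3.04 CPM in undifferentiated cells, 1.33, 2.19 and 2.1 in wild-type mesoderm and 0.687, 1.02, 0.49 and 0.416 in wild-type HPCs. Pcgf2 in P1-CTCF-KO had 1.88, 1.85 and 2.62 CPM in mesoderm and 0.203, 0.895 and 0.634 in HPCs, and in P2-CTCF-KO 2.48, 2.72 and 2.59 in mesoderm and 1.07, 0.865, 0.837, 0.528 and 0.652 in HPCs. Its 9 mesoderm libraries (1.33 to 2.72 CPM) lay above all 12 HPC libraries (0.203 to 1.07), and it fell by 1.53 in wild-type cells (SE 0.34, adjusted p = 0.002), 1.75 in P1-CTCF-KO (SE 0.39, adjusted p = 0.0018) and 1.70 in P2-CTCF-KO (SE 0.30, adjusted p = 2.2e-04). Bmi1 (Pcgf4), its paralog and a gene that blood stem cells need for self-renewal, had 0.284 and 0.128 CPM in undifferentiated cells, 0.522, 1.09 and 0.36 in wild-type mesoderm and 1.03, 1.15, 0.690 and 0.833 in wild-type HPCs. Bmi1 in P1-CTCF-KO had 0.587, 0.453 and 0.459 CPM in mesoderm and 0.608, 0.895 and 0.507 in HPCs, and in P2-CTCF-KO 1.1, 0.469 and 0.888 in mesoderm and 0.969, 0.865, 0.558, 1.27 and 1.09 in HPCs. It rose by 2.1 from undifferentiated cells to HPCs (SE 0.44, adjusted p = 6.8e-04), and its mesoderm and HPC libraries overlapped in all genotypes together (0.36 to 1.1 and 0.507 to 1.27 CPM). Its rise of 1.51 into mesoderm (SE 0.47, adjusted p = 0.023) was lost without mesoderm library C6.1 (1.05, adjusted p = 0.12), without undifferentiated replicate 2 (1.13, adjusted p = 0.20), without the filter on low counts (1.42, adjusted p = 0.051) and in a fit of the compared groups alone (1.55, adjusted p = 0.068).

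The PCGF subunits of variant complexes had fewer counts or wider spread. Pcgf5 had 2.17 and 1.82 CPM in undifferentiated cells, 9.92, 4.74 and 7.62 in wild-type mesoderm and 3.18, 2.82, 2.86 and 1.67 in wild-type HPCs. In P1-CTCF-KO it had 10.6, 7.00 and 8.85 CPM in mesoderm and 3.24, 2.91 and 2.41 in HPCs, and in P2-CTCF-KO 4.34, 2.63 and 3.63 in mesoderm and 4.07, 3.37, 16.7, 3.17 and 2.61 in HPCs. Wild-type and P1-CTCF-KO mesoderm thus lay above their HPCs, whereas in P2-CTCF-KO both stages overlapped and the HPC library D2.1 was the highest of all 23. Pcgf5 rose by 1.90 into wild-type mesoderm (SE 0.57, adjusted p = 0.018) and fell by 1.52 into wild-type HPCs (SE 0.48, adjusted p = 0.022) and by 1.64 into P1-CTCF-KO HPCs (SE 0.53, adjusted p = 0.023). These calls were lost without 1 library: the first without mesoderm B9.3 or either undifferentiated replicate (1.65 to 2.12, adjusted p 0.065 to 0.15), the second without HPC C8.1 or mesoderm B9.3 or C8.1 (-1.51 to -1.25, adjusted p 0.052 to 0.096), and the third without any 1 of the 3 HPC libraries or mesoderm E7.1 (-1.73 to -1.48, adjusted p 0.051 to 0.081). Pcgf6, of the complex that silences germline genes, had 1.95 and 2.18 CPM in undifferentiated cells, 1.04, 0.850 and 1.26 in wild-type mesoderm and 0.344, 0.640, 0.197 and 0.416 in wild-type HPCs. Pcgf6 in P1-CTCF-KO had 0.763, 0.988 and 0.787 CPM in mesoderm and 0.406, 0.448 and 0 in HPCs, and in P2-CTCF-KO 1.65, 1.13 and 1.11 in mesoderm and 0.388, 0.769, 0.488, 1.37 and 0.543 in HPCs. Every wild-type HPC library lay below every wild-type mesoderm library. It fell from undifferentiated cells to HPCs by 2.39 (SE 0.45, adjusted p = 2.5e-04). Its falls from mesoderm to HPCs, by 1.45 in wild-type cells (SE 0.47, adjusted p = 0.026) and 1.61 in P1-CTCF-KO (SE 0.60, adjusted p = 0.045), were lost with the clone as a replicate block (-1.50 and -1.67, adjusted p 0.061 and 0.077), the first also without HPC C6.1 or C8.1 or mesoderm B9.3 or C8.1 (-1.49 to -1.24, adjusted p 0.051 to 0.096) and the second without any 1 library other than HPC E7.2 (-1.84 to -0.98, adjusted p 0.061 to 0.21). Pcgf3 had 4.74 to 6.50 CPM in mesoderm and 2.66 to 6.1 in HPCs, Pcgf1 at most 0.507 in either, and neither was called. Pcgf1 spans 2467 bp against 45719 bp of Pcgf3, so these CPM do not rank both genes.

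Endothelial marker levels differed within the mesoderm groups, and Pcgf5 was set beside them. Wild-type mesoderm clones B9.3, C8.1 and C6.1, in falling order of Pcgf5, had summed endothelial markers (Cdh5, Pecam1, Tek and Sox18) of 63.6, 7.74 and 1.34 CPM. P1-CTCF-KO mesoderm had 14, 3.25 and 39.3 CPM (E7.1, E7.2, E9.1), and the 3 P2-CTCF-KO mesoderm libraries, which had the 3 lowest Pcgf5 levels in mesoderm, had 0.413 to 0.563 CPM with Sox18 at 0 in each. The P2-CTCF-KO HPC library D2.1 had 46.4 CPM of these markers beside its Pcgf5 level of 16.7, and the other HPC libraries of the 3 genotypes 6.65 to 18. Undifferentiated libraries had 2.29 and 2.07 CPM. The part of these cells in the Pcgf5 values was not tested.

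**Figure D3:**
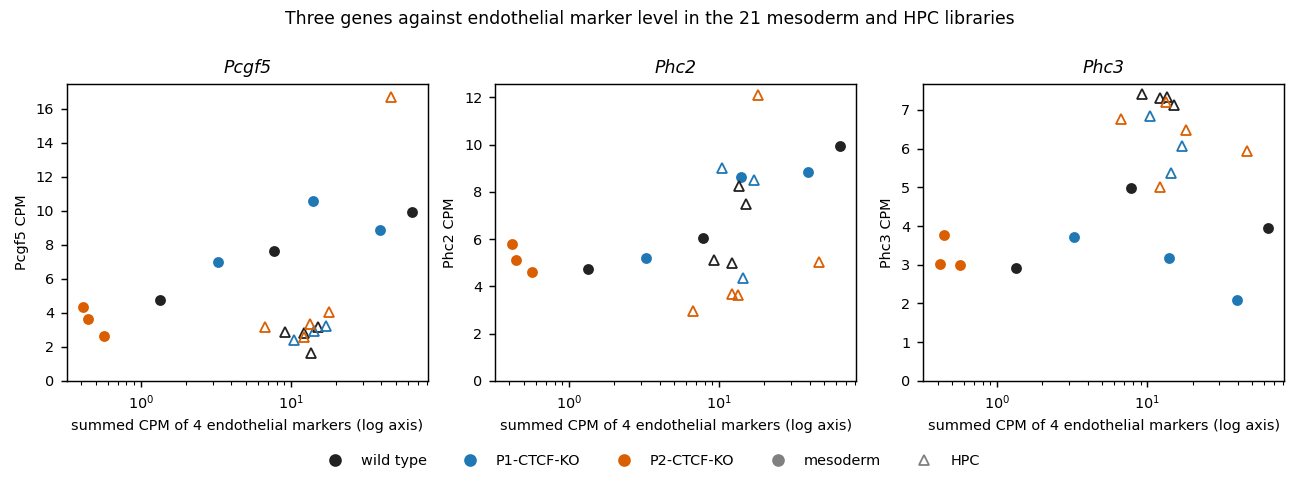
CPM of Pcgf5, Phc2 and Phc3 (linear vertical axes) against the summed CPM of 4 endothelial markers (log horizontal axis) in 21 mesoderm (filled circles) and HPC (open triangles) libraries, coloured by genotype. The 3 P2-CTCF-KO mesoderm libraries lie at 0.413 to 0.563 CPM of the markers with Pcgf5 from 2.63 to 4.34, the P2-CTCF-KO HPC library D2.1 lies at 46.4 with Pcgf5 at 16.7, and Phc3 in HPCs lies between 5 and 7.40 CPM at every marker level.

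Among the CBX subunits, which read the PRC2 mark, the gene with the highest level per length was Cbx7 in undifferentiated cells (0.42 CPM per kb), Cbx2 in wild-type mesoderm (0.277) and Cbx6 in wild-type HPCs (0.117). Cbx7 had 6.43 and 7.70 CPM in undifferentiated cells, 0.406, 0.486 and 0.6 in wild-type mesoderm and 0, 0, 0.0986 and 0.0833 in wild-type HPCs. Cbx7 in P1-CTCF-KO had 0.0587, 0.988 and 0.328 CPM in mesoderm and 0, 0.224 and 1.01 in HPCs, and in P2-CTCF-KO 1.24, 0.281 and 0.444 in mesoderm and 0.291, 0, 0.558, 0.106 and 0 in HPCs. Undifferentiated cells thus had more than any later library. It fell by 3.81 into mesoderm (SE 0.74, adjusted p = 8.1e-04). Wild-type HPCs held 2 counts of Cbx7 against 21 in mesoderm and 1963 in undifferentiated cells, which puts mesoderm 10.4 times (95% counting interval 2.53 to 91.2) and undifferentiated cells 143 times (39.6 to 1180) above HPCs, and the first of these differences was not called (adjusted p = 0.054), although it was by DESeq2, with RLE size factors, without the filter on low counts and without ribosomal and multi-locus entries. Cbx2, a CBX protein that compacts chromatin, had 1.01 and 0.952 CPM in undifferentiated cells. In mesoderm Cbx2 had 1.97, 2.31 and 2.58 CPM in wild-type, 2.82, 1.85 and 2.49 in P1-CTCF-KO and 2.41, 2.16 and 2.07 in P2-CTCF-KO clones. In HPCs it had 0.344, 0.768, 0.197 and 0 CPM in wild-type, 0.203, 0.336 and 0.253 in P1-CTCF-KO and 0.0969, 0.0961, 0.279, 0 and 0 in P2-CTCF-KO libraries. No HPC library reached a mesoderm library, and Cbx2 fell by 2.92 in wild-type cells (SE 0.52, adjusted p = 3.3e-04), 3.09 in P1-CTCF-KO (SE 0.62, adjusted p = 7.7e-04) and 4.28 in P2-CTCF-KO (SE 0.56, adjusted p = 1.1e-05). These calls held when any 1 library of the groups compared was left out, although an HPC library had at most 6 counts of the gene, and a fit of the wild-type groups alone left it out as too low. Pcgf6 was likewise left out of the fits of the wild-type and of the P1-CTCF-KO groups alone. The Cbx2 difference between mesoderm and undifferentiated cells was 1.22 and missed the threshold (adjusted p = 0.064). It was called by DESeq2, with the libraries of a clone summed and in a fit of the compared groups alone. The fall of Cbx2 by 1.71 from undifferentiated cells to HPCs (SE 0.55, adjusted p = 0.014) was lost without undifferentiated replicate 1 (-1.66, adjusted p = 0.06).

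Cbx6 had 3.83 and 3.86 CPM in undifferentiated cells, 1.97, 2.06 and 2.76 in wild-type mesoderm and 1.29, 1.66, 1.28 and 0.666 in wild-type HPCs. Its log2 fold change between the last 2 was -0.92 (adjusted p = 0.044), under the fold limit, but beyond it by DESeq2, with RLE size factors, without ribosomal and multi-locus entries, with the libraries of a clone summed, in a fit of the compared groups alone and without HPC B9.3 or B9.3-2. From mesoderm to HPCs it fell by 1.93 in P1-CTCF-KO (SE 0.44, adjusted p = 0.0023), from 1.59, 2.31 and 1.25 to 0.203, 0.671 and 0.380 CPM. In P2-CTCF-KO its 3 mesoderm libraries had 2.96, 1.22 and 2.37 CPM and its 5 HPC libraries 0.776, 1.06, 1.05, 1.37 and 1.19. The fall of 1.02 there (SE 0.32, adjusted p = 0.017) was lost without HPC D10.1 (-0.93, adjusted p = 0.04) or mesoderm D10.1 or E9.1 (-0.74 and -0.97, adjusted p 0.14 and 0.06) and with the replicate block (-0.98, adjusted p = 0.053). The Cbx6 entry lies wholly within Npcd on the same strand (1499 and 1768 counts over 23 libraries), so the reads of these genes cannot be told apart. Cbx8 had at most 0.232 CPM in any library.

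Levels per length, as CPM per kb of gene span, gave the order of the genes at each stage. In undifferentiated cells Phc1 led at 0.946 (0.915 to 0.977 over libraries), followed by Cbx7 at 0.420 (0.382 to 0.457) and Mtf2 at 0.395 (0.383 to 0.407), the last 2 of which overlapped. In wild-type mesoderm Rbbp7 (0.385) and Rbbp4 (0.360) overlapped at the top, Cbx2 was the third at 0.277 (0.239 to 0.313), and Cbx7 was at place 31 with 0.0295. In wild-type HPCs Jarid2 led at 0.306 (0.164 to 0.478) and overlapped Rbbp4 (0.274) and Suz12 (0.272), while Cbx2 was at place 26 with 0.0396 and Cbx7 last with 0.0027. Cbx2 was the third in mesoderm of all 3 genotypes and between places 26 and 31 in their HPCs.

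The PHC subunits, which let canonical PRC1 polymerise, differed in direction. Phc1 (Rae28), which blood stem cells are known to need, had 20.6 and 22.0 CPM in undifferentiated cells, 2.26, 3.04 and 2.40 in wild-type mesoderm and 1.98, 1.79, 2.17 and 1.42 in wild-type HPCs. It fell by 3.07 into mesoderm (SE 0.29, adjusted p = 1.4e-06), and every later library was at 6.95 CPM or below. In P2-CTCF-KO Phc1 had 6.95, 3.85 and 3.55 CPM in mesoderm and 1.36, 1.44, 1.60, 2.54 and 1.30 in HPCs, without overlap, and fell by 1.54 (SE 0.25, adjusted p = 7.9e-05). P1-CTCF-KO had 3.23, 3.58 and 3.21 CPM in mesoderm and 2.03, 2.01 and 1.27 in HPCs. Phc2 had 1.70 and 1.54 CPM in undifferentiated cells and 9.92, 4.74 and 6.06 in wild-type mesoderm, and 7.47, 4.99, 5.13 and 8.25 in wild-type HPCs. Phc2 in P1-CTCF-KO had 8.63, 5.19 and 8.85 CPM in mesoderm and 8.52, 4.36 and 9 in HPCs, and in P2-CTCF-KO 5.78, 4.6 and 5.11 in mesoderm and 12.1, 3.65, 5.02, 2.96 and 3.69 in HPCs. Its rise of 2.1 (SE 0.48, adjusted p = 0.0032) was lost without undifferentiated replicate 2 (2.07, adjusted p = 0.052), and its 9 mesoderm libraries (4.6 to 9.92 CPM) and 12 HPC libraries (2.96 to 12.1) overlapped. Phc3 had 2.54 and 2.35 CPM in undifferentiated cells, 3.95, 2.91 and 4.98 in wild-type mesoderm and 7.13, 7.30, 7.40 and 7.33 in wild-type HPCs. Phc3 in P1-CTCF-KO had 3.17, 3.71 and 2.1 CPM in mesoderm and 6.08, 5.37 and 6.84 in HPCs, and in P2-CTCF-KO 3.03, 3 and 3.78 in mesoderm and 6.49, 7.21, 5.93, 6.76 and 5 in HPCs. Every HPC library (5 to 7.40 CPM) was above every mesoderm library (2.1 to 4.98), the nearest by little. Phc3 rose by 1.57 from undifferentiated cells to HPCs (SE 0.24, adjusted p = 2.6e-05). From mesoderm to HPCs its log2 fold change was 0.87 in wild-type cells (adjusted p = 0.0038), 1.02 in P1-CTCF-KO (adjusted p = 0.0019) and 0.94 in P2-CTCF-KO (adjusted p = 0.0015), of which only the second was beyond the fold limit, and it fell under that limit by DESeq2 (0.99), without the filter on low counts (0.92), without ribosomal and multi-locus entries (0.96), with the libraries of a clone summed (0.91) and without HPC or mesoderm library E9.1 (0.92 and 0.83). Scmh1, which binds PHC proteins, had 2.34 and 2.19 CPM in undifferentiated cells, 6.61, 2.91 and 3.18 in wild-type mesoderm and 7.39, 4.99, 10.7 and 7.16 in wild-type HPCs. Scmh1 in P1-CTCF-KO had 2.94, 2.43 and 4.59 CPM in mesoderm and 6.89, 7.27 and 7.22 in HPCs, and in P2-CTCF-KO 2.75, 2.34 and 2.66 in mesoderm and 6.4, 8.27, 3.28, 6.23 and 8.36 in HPCs. The HPC libraries lay above the mesoderm libraries of their genotype in both deletions, and wild-type libraries overlapped. It rose by 1.11 in P1-CTCF-KO (SE 0.35, adjusted p = 0.018) and by 1.32 in P2-CTCF-KO (SE 0.33, adjusted p = 0.0038), and the first call was lost without mesoderm E7.1 (1.04, adjusted p = 0.062) or E7.2 (0.93, adjusted p = 0.083).

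Wild-type HPCs against undifferentiated cells gave the most calls. Among the genes lower in HPCs were Phc1 (log2 fold change -3.53, SE 0.27, adjusted p = 2.1e-08), Eed (-2.16, adjusted p = 8.6e-06), Mtf2 (-1.61, adjusted p = 1.2e-06), Pcgf2 (-2.04, adjusted p = 6.4e-05), Cbx6 (-1.67, adjusted p = 4.3e-04), Kdm2b (-1.61, adjusted p = 1.1e-04) and L3mbtl2 (-1.74, adjusted p = 6.8e-04), beside Pcgf6, Cbx2 and Cbx7. Among those higher were Bcorl1 (2.44, adjusted p = 3.6e-05), Yaf2 (2.2, adjusted p = 4.5e-05), Phc2 (2, adjusted p = 0.0016) and Scmh1 (1.74, adjusted p = 7.4e-04), beside Bmi1 and Phc3. Both comparisons of wild-type cells with undifferentiated cells share the same 2 undifferentiated libraries.

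Of all 30 tested genes, 5 (16.7%) had mesoderm and HPC libraries that did not overlap in CPM over the 3 genotypes, where 12.4% of all 12543 tested genes did. Phc3 was higher in HPCs, where 7.29% of all genes were, and Rbbp7, Pcgf2, Cbx2 and Kdm2b were lower, where 5.07% were.

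In variant PRC1, Yaf2, Bcor and Bcorl1 rose into mesoderm and Kdm2b fell into HPCs. Yaf2, which takes the place of a CBX protein, had 1.17 and 0.814 CPM in undifferentiated cells and 5.51, 3.52 and 4.14 in wild-type mesoderm and rose by 2.15 (SE 0.36, adjusted p = 2.6e-04). Wild-type HPCs had 4.12, 3.2, 4.73 and 6.25 CPM of Yaf2. Yaf2 in P1-CTCF-KO had 4.23, 2.76 and 3.74 CPM in mesoderm and 8.52, 4.03 and 8.36 in HPCs, and in P2-CTCF-KO 2.82, 3.38 and 3.04 in mesoderm and 6.3, 5.77, 5.09, 3.17 and 3.58 in HPCs. Its paralog Rybp had 6.84 and 5.99 CPM in undifferentiated cells and 8.82, 7.41 and 7.44 in wild-type mesoderm. Wild-type HPCs had 3.95, 4.61, 5.03 and 4.5 CPM of Rybp. In P1-CTCF-KO Rybp had 172 counts in mesoderm E7.1, the highest level of all, 7.08 and 5.77 CPM in E7.2 and E9.1 and 3.24, 5.82 and 4.69 in HPCs, and in P2-CTCF-KO 6.27, 6.28 and 6.14 in mesoderm and 3.49, 6.54, 8.09, 5.81 and 5.43 in HPCs. Its log2 fold change into wild-type HPCs was -0.81 (adjusted p = 0.016), under the fold limit. Bcorl1 had 0.535 and 0.628 CPM in undifferentiated cells and 3.60, 5.59 and 5.52 in wild-type mesoderm and rose by 3.06 (SE 0.40, adjusted p = 2.1e-05). Wild-type HPCs had 2.32, 2.3, 2.66 and 5.25 CPM of Bcorl1. Bcorl1 in P1-CTCF-KO had 5.81, 4.53 and 5.83 CPM in mesoderm and 5.07, 3.02 and 4.94 in HPCs, and in P2-CTCF-KO 5.78, 3.47 and 4.29 in mesoderm and 2.62, 2.69, 3.49, 1.48 and 1.85 in HPCs. Both undifferentiated libraries lay below every other library. Its paralog Bcor, a corepressor bound by BCL6, had 2.98 and 3.28 CPM and then 7.48, 7.41 and 8.4 in wild-type mesoderm, a rise of 1.31 (SE 0.23, adjusted p = 3.9e-04), and 7.39, 6.02, 6.41 and 4.58 in wild-type HPCs. Bcor in P1-CTCF-KO had 9.33, 7.62 and 9.77 CPM in mesoderm and 4.46, 7.16 and 5.45 in HPCs, and in P2-CTCF-KO 7.16, 7.5 and 7.55 in mesoderm and 5.91, 6.15, 7.05, 8.77 and 7.71 in HPCs. Kdm2b, which brings PRC1 to unmethylated CpG islands, had 9.34 and 10.7 CPM in undifferentiated cells, 5.63, 6.92 and 7.50 in wild-type mesoderm and 2.83, 2.69, 3.85 and 3.66 in wild-type HPCs. Kdm2b in P1-CTCF-KO had 6.11, 7.12 and 6.16 CPM in mesoderm and 2.03, 3.36 and 4.56 in HPCs, and in P2-CTCF-KO 12.5, 6.75 and 8.81 in mesoderm and 3.2, 4.13, 5.16, 2.43 and 2.93 in HPCs. No HPC library reached a mesoderm library. It fell from mesoderm to HPCs by 1.03 in wild-type cells (SE 0.27, adjusted p = 0.0063) and by 1.38 in P2-CTCF-KO (SE 0.25, adjusted p = 2.4e-04). The wild-type value was under the fold limit without HPC B9.3-2 (-0.96) or mesoderm C8.1 (-0.94). L3mbtl2 had 4.68 and 5.33 CPM in undifferentiated cells and 1.28, 2.67 and 1.68 in wild-type mesoderm, and 1.72, 2.05, 1.38 and 0.916 in wild-type HPCs. L3mbtl2 in P1-CTCF-KO had 2.05, 1.4 and 1.51 CPM in mesoderm and 0.811, 1.23 and 1.14 in HPCs, and in P2-CTCF-KO 2.69, 2.34 and 2.52 in mesoderm and 1.16, 1.35, 1.05, 3.17 and 2.93 in HPCs. Its fall of 1.46 (SE 0.39, adjusted p = 0.009) was lost without mesoderm B9.3 (-1.23, adjusted p = 0.057) or undifferentiated replicate 2 (-1.32, adjusted p = 0.08). The gene overlaps Chadl on the opposite strand. Rybp, Bcor, Bcorl1, Ezh2, Pcgf1, Pcgf5, Pcgf6, Phf1 and Ring1 lie inside the spans of multi-locus entries but kept counts of their own.

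To compare paralogs within a library, the log2 ratio of their counts was taken for 15 pairs (0.5 added to each count), and 9 mesoderm and 12 HPC libraries were compared by an exact 2-sided permutation test with 39200 relabellings within genotypes, adjusted over the 15 pairs. Such ratios do not depend on the scaling of a library, they are not per length, and they count clones that appear at both stages or more than once as separate libraries. The ratio shifted in 8 of 15 pairs. Ratios of other gene pairs were not computed, so no share over all genes stands beside this count. Pairs that share Phc1, Mtf2 or Cbx7 are also not independent, and the count is not a result about paralogs as such. Pcgf2 to Bmi1 went from 1.76 ± 0.58 (SD, n = 9) in mesoderm to -0.35 ± 0.58 (n = 12) in HPCs, a shift of -2.11 without overlap, lower in all 9 clones (permutation p = 2.55e-05, the smallest the test can give, adjusted p = 0.000191). Undifferentiated cells had a mean of 3.74 for that pair, and the shift was -2.1 in wild-type cells, -2.33 in P1-CTCF-KO and -1.93 in P2-CTCF-KO. Phc3 to Phc1 went from -0.03 ± 0.67 (SD, n = 9) to 1.91 ± 0.35 (n = 12), higher in 9 of 9 clones without overlap between stages (permutation, adjusted p = 0.000191), and had a mean of -3.12 in undifferentiated cells. Its shift was 1.38, 1.96 and 2.42 in the 3 genotypes. Yaf2 to Rybp rose from -0.98 ± 0.25 to 0.01 ± 0.71, higher in 9 of 9 clones (shift 0.99, adjusted permutation p = 0.00373), from -2.71 in undifferentiated cells. Rbbp7 to Rbbp4 fell from -0.46 ± 0.18 to -0.96 ± 0.34, higher in 0 of 9 clones (shift -0.50, adjusted permutation p = 0.00332).

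The other 4 ratios that shifted were less stable. Phc2 to Phc1 rose by 0.84 (8 of 9 clones, adjusted permutation p = 0.0422), from -3.71 in undifferentiated cells to 0.89 and 1.72, and 10 of the 21 libraries each lost the call when left out (0.69 to 0.90, adjusted p 0.0503 to 0.113): wild-type HPC B9.3 and C8.1, wild-type mesoderm C6.1, P1-CTCF-KO HPC E7.1 and E9.1, P1-CTCF-KO mesoderm E7.1 and E7.2 and all 3 P2-CTCF-KO mesoderm libraries. Cbx2 to Cbx7 fell by 1.97 (higher in 1 of 9 clones, adjusted permutation p = 0.0306), from 2.32 to 0.35, with a mean of -2.84 in undifferentiated cells. Only 24 counts of each gene were present in the 12 HPC libraries, the shift was -0.62 in wild-type cells, and the call was lost without P1-CTCF-KO mesoderm E7.1 (-1.64, adjusted p = 0.0642) or P2-CTCF-KO mesoderm D2.1 (-1.92, adjusted p = 0.0537). Phf19 to Mtf2 rose by 1.35 (7 of 9 clones, adjusted permutation p = 0.0172) on 21 and 40 counts of Phf19, and lost its call with the clone as a replicate block (1.24, adjusted p = 0.0502). Phf1 to Mtf2 rose by 0.84 (7 of 9 clones, adjusted permutation p = 0.0306) on 29 and 33 counts of Phf1 and lost its call with the replicate block (0.79, adjusted p = 0.117), with a mean per clone (0.79, adjusted p = 0.0666) and without P1-CTCF-KO mesoderm E7.1 or E9.1, P2-CTCF-KO mesoderm D2.1 or P2-CTCF-KO HPC E9.1 (0.67 to 0.80, adjusted p 0.0502 to 0.0705). In wild-type libraries alone, where 35 relabellings allow no p under 0.0286, 0 of the 15 ratios passed after adjustment. Ezh1 to Ezh2, Ring1 to Rnf2, Pcgf5 to Pcgf3, Pcgf1 to Pcgf6, Cbx6 to Cbx7, Cbx8 to Cbx7 and Bcorl1 to Bcor did not pass the test (shifts of -0.81 to 1.30, adjusted permutation p 0.147 to 0.461).

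**Figure D4:**
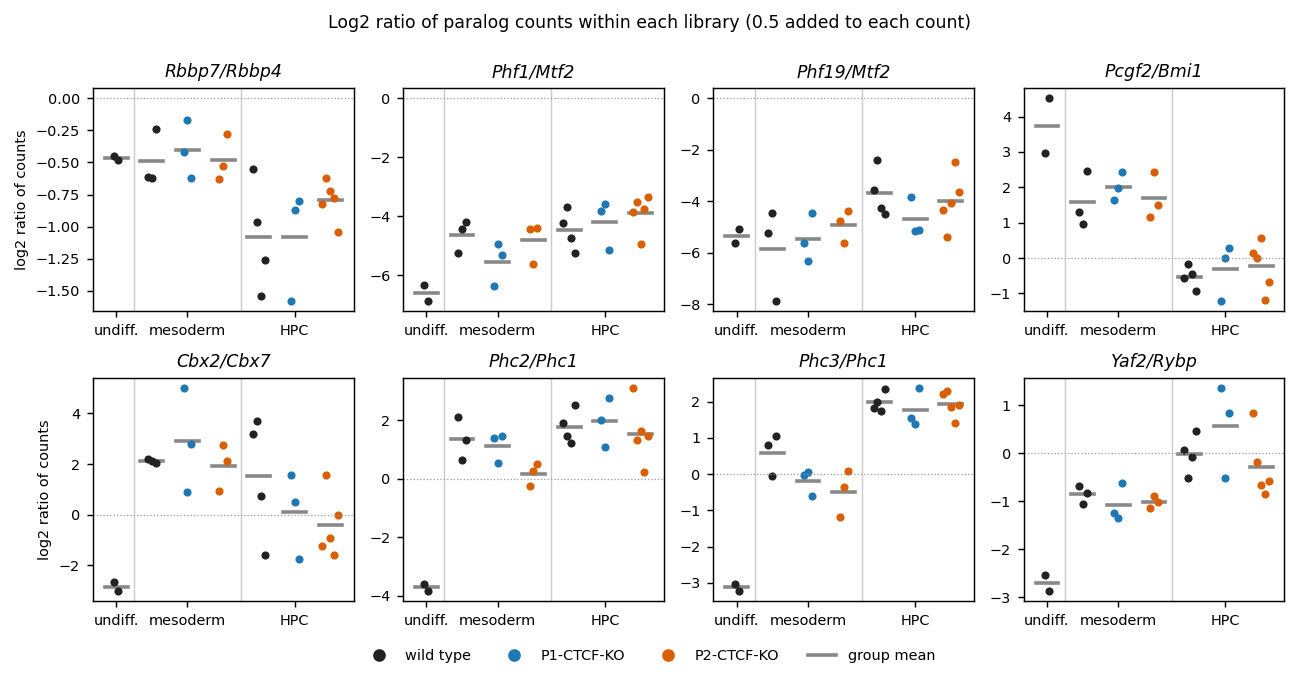
Log2 ratio of the counts of paralogs within each library for the 8 pairs whose ratio shifted between mesoderm and HPCs (0.5 added to each count), by stage and genotype; points are libraries and bars group means. Pcgf2 to Bmi1 and Phc3 to Phc1 do not overlap between mesoderm and HPC libraries, and the undifferentiated libraries have the lowest mean of Phc3 to Phc1 (-3.12) and the highest of Pcgf2 to Bmi1 (3.74).

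To ask whether loss of a Runx1 CTCF site altered these genes, each genotype was compared with wild type at each stage and in its change from mesoderm to HPCs. By edgeR, 0 of the 30 tested genes were called in any of these 6 comparisons, and 0 by DESeq2. At an unadjusted p under 0.05 there were 0 and 4 of the genes in mesoderm (P1-CTCF-KO, P2-CTCF-KO), 4 and 3 in HPCs and 1 and 3 in the change between stages. Of all 12543 genes 184 and 1278 passed that level in mesoderm, 588 and 545 in HPCs and 445 and 853 in the change between stages. Of all genes 0% were called for P1-CTCF-KO and 0.144% (18 genes) for P2-CTCF-KO in mesoderm, 0% for either in HPCs, and 0% and 0.0159% (2 genes) in the change between stages. Where edgeR called none of all genes, DESeq2 called 0 (P1-CTCF-KO, mesoderm), 2 and 0 (P1- and P2-CTCF-KO, HPCs) and 1 (P1-CTCF-KO, change between stages). The smallest adjusted p was that of Phc1 in P2-CTCF-KO mesoderm, with a log2 difference of 0.92 (95% interval 0.36 to 1.48, adjusted p = 0.18). Its libraries there had 6.95, 3.85 and 3.55 CPM, all above the wild-type values of 2.26, 3.04 and 2.40. P2-CTCF-KO mesoderm also had more of the mesoderm markers (61.2 to 74.7 CPM against 24.7 to 44.4) and less of the blood markers (3.58 to 10.2 against 17.9 to 25.9). Its pluripotency markers summed to 8.68, 5.82 and 3.63 CPM in D10.1, D2.1 and E9.1, the order of their Phc1 levels, against 0.812 to 1.21 in wild-type mesoderm. The part of these 3 marker lists in the Phc1 difference was not tested. In the change from mesoderm to HPCs, Pcgf5 differed most in P2-CTCF-KO, by 2.29 (95% interval 0.91 to 3.68, adjusted p = 0.31), which includes the HPC library D2.1. Cbx6 in P1-CTCF-KO HPCs showed a log2 difference of -1.41 (95% interval -2.35 to -0.46, adjusted p = 0.92) and Jarid2 of 1 (0.06 to 1.94, adjusted p = 0.92). The 95% intervals of the 30 genes reached a median of 0.56 to 0.70 to either side for a comparison of 2 groups and 0.88 to 0.93 for the change between stages. A call asked for more than an interval without 0, and log2 differences as large as 3.12 (P1-CTCF-KO, change between stages) missed it, so the absence of calls does not show equal levels.

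Beyond the 33 genes, 30 associated genes of the same pathway (among them the H3K27 demethylases, the deubiquitinase Bap1 and MBT and forkhead proteins) were counted, of which 28 were tested. Into wild-type mesoderm 4 of them rose (Auts2, Foxk1, L3mbtl3 and Kdm6b) and 1 fell (Sfmbt2), 5 of 28 where 22.8% of all genes were called, and into wild-type HPCs Sfmbt2 rose while Auts2, Foxk1 and Kdm6b fell, 4 of 28 where 23.1% were. Neither count is above the share of all genes. Kdm6b, a demethylase that removes the PRC2 mark, had 1.32 to 1.69 CPM in undifferentiated cells, 15.6 to 16.6 in wild-type mesoderm and 4.81 to 6.16 in wild-type HPCs. It rose by 3.41 into mesoderm (SE 0.24, adjusted p = 1.3e-08) and fell into HPCs by 1.55 in wild-type cells (SE 0.18, adjusted p = 4.6e-06), 1.72 in P1-CTCF-KO and 2.11 in P2-CTCF-KO. Sfmbt2, an MBT-domain protein, had 28.0 to 31.1 CPM in undifferentiated cells, 1.68 to 4.08 in wild-type mesoderm and 4.61 to 8.50 in wild-type HPCs. P1-CTCF-KO had 1 associated gene higher and 2 lower in HPCs than in mesoderm, P2-CTCF-KO 0 higher and 2 lower, and no associated gene was called between genotypes. Of 20 developmental genes widely used as Polycomb targets only 8 were tested, since the others had too few counts. Their summed level was 2.41 to 2.59 CPM in undifferentiated cells, 8.12 to 21.6 in wild-type mesoderm and 0.25 to 2.49 in wild-type HPCs. P1-CTCF-KO had 12.2 to 20.8 CPM in mesoderm and at most 0.634 in HPCs, and P2-CTCF-KO 26.1 to 32.5 in mesoderm, above every wild-type library, and 0.288 to 8.3 in HPCs, with the highest value in D2.1. Into wild-type mesoderm Sox17, Msx1, Hand1, Lhx1 and Gata4 rose and Pax6 fell, 6 of 8 against 22.8% of all genes, and into wild-type HPCs Msx1, Hand1, Lhx1 and Gata4 fell, 4 of 8 against 23.1%. A gene low at the other stages can pass the count filter through mesoderm alone, which favours such calls. These shares therefore cannot be read as a result about Polycomb targets. Hand1, Msx1, Lhx1 and Gata4 are also known as genes of mesoderm and its derivatives.

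Open chromatin at the promoters was described from the ATAC-seq peak lists of wild-type mesoderm (76766 peaks) and HPCs (29037 peaks) and CTCF binding from the ChIP-seq peak list of 416B cells, a mouse blood progenitor line (44513 peaks). The labels give the ATAC-seq cells as wild-type E14-TG2a, but the study's methods describe a derived line with a Venus reporter at Runx1 and an enhancer-reporter transgene, so these were not the clones of the RNA-seq. The ATAC-seq lists were called on the merged reads of 4 mesoderm and 2 HPC libraries, so no replicate check was possible, and a longer list alone can give more promoters with a peak. Within 1000 bp of the annotated start 29 of the 33 genes had a mesoderm peak, against 55.2% of 24961 genes, and 19 had an HPC peak, against 37.1%. Bcor, Cbx7, Pcgf2 and Phf19 had neither. 10 genes had a peak in mesoderm only: Aebp2, Bcorl1, Bmi1, Cbx2, Cbx6, Ezh1, Kdm2b, Pcgf6, Phf1 and Yaf2. The share of all genes with a mesoderm peak only was not counted, and the HPC list is the shorter. This number therefore does not show that these promoters closed. Cbx2 had 3 mesoderm peaks there, from -185 to -40, 462 to 610 and 678 to 769 bp of the start, and its nearest HPC peak was 17978 bp away. In the sequence shown for Cbx2, the first of these peaks is the stretch in capitals. Jarid2 had a peak over its start at both stages, from -194 to 41 bp in mesoderm and from -201 to 88 bp in HPCs, as did Phc1 and Phc3. Bmi1, which had more transcript in HPCs than in undifferentiated cells, was also among the genes with a mesoderm peak only. A CTCF peak lay within 1000 bp of the start of Pcgf1, Bmi1, Cbx2, Scmh1 and Rybp, 5 of 33 against 12.8% of all genes, and that of Cbx2 (-410 to -86 bp) overlapped its mesoderm peak.

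**Figure D5:**
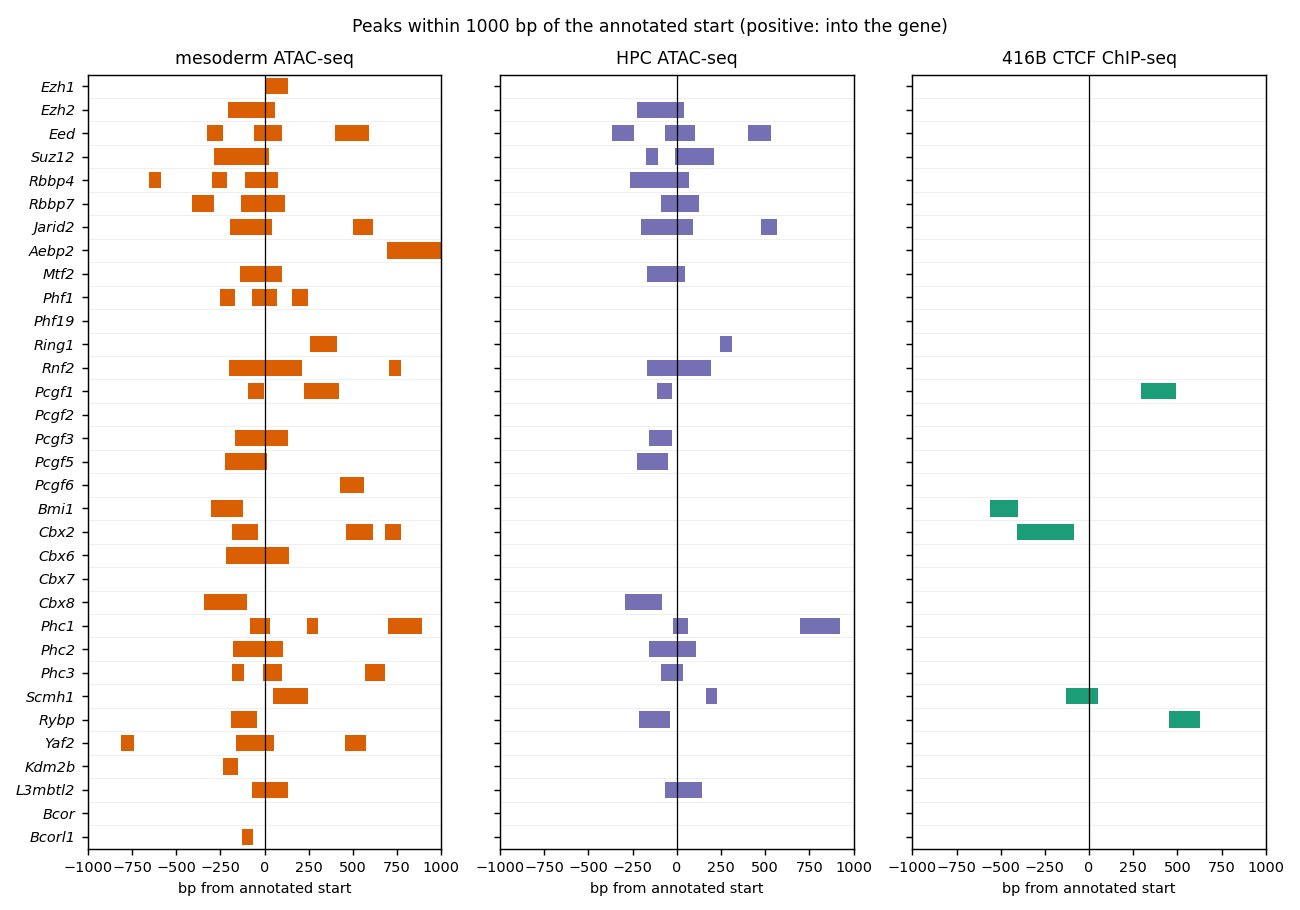
Peaks within 1000 bp of the annotated start of the 33 genes (rows), by distance from the start in bp (positive is into the gene), for mesoderm ATAC-seq, HPC ATAC-seq and 416B CTCF ChIP-seq. 29 genes have a mesoderm peak, 19 an HPC peak and 5 a CTCF peak, and the 3 mesoderm peaks of Cbx2 have no counterpart in HPCs.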

How the data were processed

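The count table of 23 poly(A)-minus RNA-seq libraries was analysed with ATAC-seq and CTCF ChIP-seq peak lists. Per the paper's methods, the authors mapped reads with STAR to mm9, removed duplicates with picard and counted reads over exons and introns with featureCounts, and the count values are deposited without normalization; annotation and strand setting are not given in the sources used here. The peak lists give positions called by the authors with MACS2. The labels name RiboMinus depletion for all libraries, the methods for undifferentiated mESCs and 416B cells.

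Tests on counts used edgeR 4.0.16 in R 4.3.3 (TMM, filterByExpr with a minimum count of 10, quasi-likelihood test, Benjamini-Hochberg adjustment over 12543 genes) in 1 fit of 23 libraries in 7 groups, with 11 contrasts. This test was checked on simulated data for wild-type HPCs against mesoderm, with the same limits for a call. There edgeR called 69 genes, 5 of them unchanged, and recovered 14.9% of genes changed by log2 1 and 63.1% of those changed by 2. DESeq2 called 93, 18 of them unchanged, and recovered 18.9% and 72.6%. DESeq2 1.42.0, other scalings, filters, fits and left-out libraries were alternatives. CPM are per effective library size and not per length. Depth was 878966 to 2288976 counts outside ribosomal and multi-locus entries in mesoderm and HPC libraries. Intervals of count ratios cover counting error only. Ratios were tested by a permutation test written with NumPy 2.4.6.

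The 33 genes and the lists of associated, target and marker genes were chosen with earlier results of these data known. Every gene of the 33 is reported, with values of every library where it was called in a comparison or its paralog ratio shifted. Libraries of a group were never closer than sampling noise (chi-square per gene at least 4.03). Mesoderm and HPC libraries of a clone are the same cell line and so paired: their deviations from the group means correlated with r from -0.126 to 0.156 over 12543 genes. The undifferentiated libraries are technical replicates of 1 culture, and repeat libraries of a clone enter as separate libraries, so p-values measure only the spread between these libraries, which may in part be technical.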

Additional observations from a re-analysis of the deposited data

Results flagged for a closer look

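In groups of 4 or 5 libraries, 6 of 60 combinations of gene and group had 1 library set apart from the rest by Dixon's 95% limit, where chance sets apart about 1 in 20. In wild-type HPCs these were Bcorl1 in C8.1 (5.25 CPM, next 2.66) and Rbbp4 in C6.1 (11.2 CPM, next 6.79). In P2-CTCF-KO HPCs they were Pcgf5 in D2.1 (16.7 CPM, next 4.07) and Pcgf3 in D2.1 (5.72, next 4.04), Phc1 in D2.1-2 (2.54, next 1.60) and Phc2 in D10.1 (12.1, next 5.02). D2.1 was also the P2-CTCF-KO HPC library with the most endothelial marker RNA (46.4 CPM). D10.1 had the highest sum of 4 cardiac markers (7.17 CPM, at most 0.907 in the other 4 libraries), but 3 of these markers had 0 counts in it, so the sum does not show cardiac cells. The part of these marker levels in the flagged values was not tested.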

How the results depend on the processing

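0 calls or ratios reversed, and no member was called between genotypes or in the change between stages under any alternative. Of the members' calls 351 of 362 were kept under other settings and 262 of 303 with a library left out, and of the ratio calls 21 of 32 and 152 of 168. The first count leaves out calls of genes that a fit did not test. In fits of the compared groups alone from mesoderm to HPCs these were Cbx2 and Pcgf6 in wild-type cells and Pcgf6 in P1-CTCF-KO. With the fold limit kept, members called ranged from 3 to 9 (6) from mesoderm to HPCs in wild-type cells, 7 to 10 (9) in P1-CTCF-KO and 5 to 9 (7) in P2-CTCF-KO, and from 7 (without undifferentiated replicate 2) to 13 (11) and 15 to 17 (16) for mesoderm and HPCs against undifferentiated cells. Counts over all genes moved more: DESeq2 called 99 genes for P2-CTCF-KO mesoderm (edgeR 18), 2 for P1-CTCF-KO HPCs (0), and 1 (0) and 36 (2) for the change between stages in P1-CTCF-KO and P2-CTCF-KO. Without the filter on low counts P2-CTCF-KO gave 93 and 38. In fits of the compared groups alone it gave 1955 from mesoderm to HPCs (3141), 0 in mesoderm and 1 in the change between stages. With each library left out in turn, genes called ranged from 1262 to 2581 for wild-type mesoderm against undifferentiated cells (2861; 1262 and 1454 without an undifferentiated replicate), 2397 to 2973, 2741 to 3038 and 2663 to 3735 from mesoderm to HPCs in wild-type cells and then the P1- and P2-CTCF-KO, 3869 to 5182 for wild-type HPCs against undifferentiated cells, 2 to 87 for P2-CTCF-KO mesoderm (87 without wild-type C6.1, and moved by over 1.5 times by each of the 6 libraries), 1 to 4 for its change between stages (1 without mesoderm P2-CTCF-KO E9.1 or wild-type C8.1, 4 without P2-CTCF-KO HPC D10.1 or wild-type mesoderm C6.1) and 0 to 0 for the other 4 comparisons. Without P2-CTCF-KO HPC D2.1, 3735 genes and 9 members were called, with Cbx7 and Bcorl1 added. Ratio calls ranged from 5 (without P1-CTCF-KO mesoderm E7.1 or P2-CTCF-KO mesoderm D2.1) to 8 with a library left out and were 0 in wild type alone. With the clone as a replicate block 2351, 2786 and 2453 genes changed from mesoderm to HPCs in wild-type cells and then the P1- and P2-CTCF-KO, 6 ratios shifted, Rbbp7 in wild-type and Kdm2b in P1-CTCF-KO cells gained a call, and beyond the losses given in the report no member's call changed. CTCF promoter peaks were 8 within 2500 bp and 1 among wider peaks (5). Against undifferentiated cells edgeR called 1302 of 2861 genes higher in mesoderm and DESeq2 1359 of 2411; leaving out ribosomal and multi-locus entries moved the median of all genes from -0.16 to -0.04. The few counts of Cbx7, Cbx8, Phf1, Phf19, Pcgf1 and Ring1 limit what can be said of them.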
